A study of Homo sapiens with 6 samples.

Results

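The genes described here are ID1, ID2, ID3, ID4, SMAD6, SMAD7, SMAD9, BMP2, BMP4 and BAMBI, the 10 of the 35840 genes with deposited values whose Ensembl IDs carry these symbols in GENCODE release 44 of GRCh38. They were selected on their FPKM values in the comparison of metformin with control, so their values are a description, no p-value is given for them, and counts of them past a threshold only sort them and are not a test. Their RNA was measured in Huh-7, a human hepatocellular carcinoma line, in 6 RNA sequencing libraries. The question was which transcripts differ after metformin, a biguanide drug for type 2 diabetes known to inhibit mitochondrial complex I. The metformin group (replicates 1 to 3) received 20 mM for 48 h and the control group (replicates 4 to 6) received 0 mM for 48 h. Per the methods, all cells were starved before treatment, so both groups share this step. Both groups are 1 unmodified cell line, and although the statistics section of the methods mentions independent trials in general, the text on the libraries does not mention separate cultures, so p-values for other genes measure only the spread between these libraries, which may be technical.

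Bone morphogenetic proteins (BMPs) are secreted ligands that bind type I and type II receptor kinases, which phosphorylate SMAD1, SMAD5 and SMAD9. These receptor-activated SMADs enter the nucleus with the common SMAD4 and switch on target genes, among them the ID genes and the inhibitory SMAD6 and SMAD7, which dampen the receptors in turn. ID proteins are helix-loop-helix proteins without a DNA-binding region that keep E proteins and related factors off DNA. In the liver, BMP signaling is best known for driving hepcidin, the hormone that controls iron uptake and release.

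All values are FPKM, fragments per kilobase of transcript scaled to the fragments of the library, so both gene length and library total are divided out. Library totals were 17241997 to 18464783 fragments in the metformin group and 17192221 to 17835152 in the control group, and 1 fragment in a gene of 1 kb was worth 0.0542 to 0.0582 FPKM. Libraries of 1 group differed by more than counting error, with a chi-square per degree of freedom of 4.42 to 14.1 within groups and 142 to 159 between them, so no library was a copy of another. The 8 hepatocyte markers reported here were present, and their summed FPKM was 975 to 1173 in metformin libraries and 2116 to 2248 in control libraries. Of these 8 markers ALB, AFP, APOA1, APOB, TTR and TF were lower, and HNF4A and SERPINA1 did not pass the test. The 3 endothelial markers with values summed to 0.352 to 0.450 FPKM in metformin libraries and 0.2998 to 0.490 in control libraries. The sums were 2.78 to 4.68 FPKM in metformin and 6.28 to 7.21 in control for 4 stromal markers. For 3 leukocyte markers they were 0.643 to 0.889 FPKM in metformin and 2.04 to 3.33 in control. Nearly all of the leukocyte sum was LYZ, with means of 0.779 FPKM after metformin and 2.70 in control. PTPRC had means of 0.0271 FPKM after metformin and 0.0341 in control, and CD68 was listed at 0 in all 6 libraries. The part of these differences in the results on the BMP genes was not tested, and in RNA from whole cultures fewer cells expressing a gene and less RNA per cell cannot be told apart.

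Fold changes are differences of mean log2(FPKM + 1), metformin minus control, with standard errors (SE) from limma fitted across 13094 genes, those whose mean reached 1 FPKM in the metformin or the control group. This scale understates the change of genes with low values. A gene outside the 10 is called higher or lower at an adjusted p under 0.05. A differentially expressed gene (DEG) also had a log2 fold change above 1 or below -1. The lists of pathway genes outside the 10 were also chosen with earlier results of these data known, so their adjusted p-values carry that limit. All 10 genes passed the minimum, SMAD6 and SMAD9 through the control group alone. SMAD7 met the DEG thresholds upward, against 4.88% of all genes tested, and 7 of the 10 (SMAD6, ID1, ID4, BMP4, ID3, BMP2 and SMAD9) met them downward, against 10.7% of all genes. ID2 was higher below the DEG threshold for size, where 28.9% of all genes were higher and 44.1% lower at the adjusted p alone. The median log2 fold change of the 10 genes was -1.68, beside -0.14 for all genes tested. Metformin and control libraries did not overlap in 9 of the 10 genes, 2 of them above and 7 below control, while 76.7% of all genes tested did not overlap (30.7% above and 46.0% below).

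**Figure D1:**
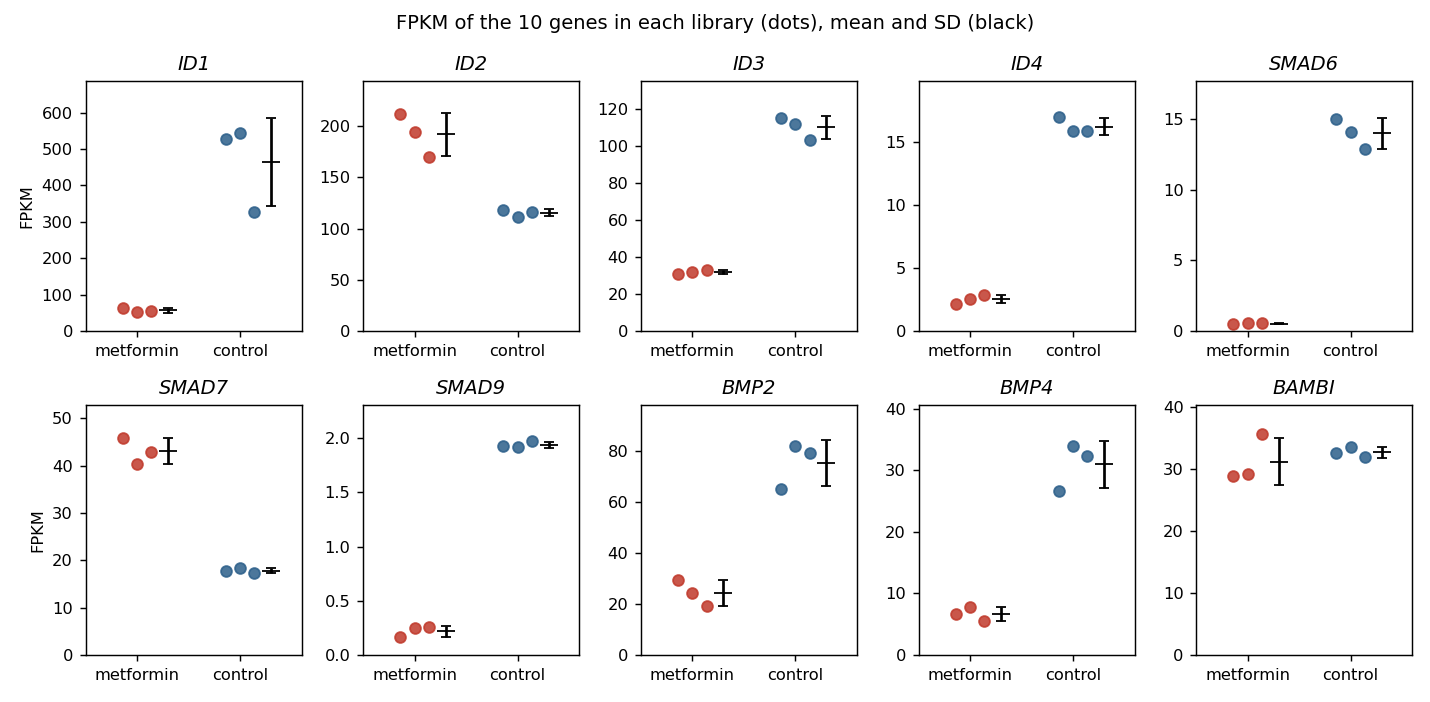
FPKM (vertical axes, each from 0) of the 10 genes in the 3 metformin libraries (red dots) and the 3 control libraries (blue dots), with the mean and SD of each group in black. The metformin libraries lie below the control libraries in ID1, ID3, ID4, SMAD6, SMAD9, BMP2 and BMP4, and above them in ID2 and SMAD7. In BAMBI they lie on both sides of the control libraries.

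Promoter sequences were taken from RefSeq for GRCh38.p14 to show which short motifs these genes share, because several of them are textbook targets of SMAD proteins. The SMAD-binding element is built on GTCT, which reads as AGAC on the other strand. The GC-rich motifs GGCGCC and GGAGCC, the second reading as GGCTCC on the other strand, are known from BMP-responsive elements. Of the 10 genes, 9 matched a promoter entry, with 13 windows in all, since SMAD7 and BMP4 have 3 each. BMP2 had no entry. The 4 windows printed here belong to ID1 and ID3, the most abundant of the ID genes that were lower after metformin, and to the inhibitory SMADs, which differed in opposite directions. Capitals mark these motifs on either strand, and each sequence runs 5′ to 3′ on the strand of its gene and ends before the first annotated exon. The windows are ID1 at chr20:31605039-31605282 (plus strand), ID3 at chr1:23559502-23559751 (minus strand), SMAD6 at chr15:66701986-66702235 (plus strand) and the most upstream of the SMAD7 windows at chr18:48950966-48951215 (minus strand).
ID1: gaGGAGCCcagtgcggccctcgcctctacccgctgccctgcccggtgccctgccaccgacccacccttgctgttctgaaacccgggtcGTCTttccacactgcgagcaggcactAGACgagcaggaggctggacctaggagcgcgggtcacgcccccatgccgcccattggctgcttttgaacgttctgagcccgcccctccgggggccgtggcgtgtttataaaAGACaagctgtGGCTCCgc
ID3: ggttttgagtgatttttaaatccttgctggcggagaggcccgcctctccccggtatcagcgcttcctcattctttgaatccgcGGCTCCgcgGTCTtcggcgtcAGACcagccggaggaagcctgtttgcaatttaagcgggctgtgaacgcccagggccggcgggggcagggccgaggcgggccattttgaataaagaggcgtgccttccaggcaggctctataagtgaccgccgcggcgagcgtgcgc
SMAD6: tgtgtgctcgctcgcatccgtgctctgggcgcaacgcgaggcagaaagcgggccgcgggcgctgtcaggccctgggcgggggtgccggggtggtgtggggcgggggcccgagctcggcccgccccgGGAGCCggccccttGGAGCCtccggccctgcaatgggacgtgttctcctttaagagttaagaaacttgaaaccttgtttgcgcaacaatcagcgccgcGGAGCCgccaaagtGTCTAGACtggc
SMAD7: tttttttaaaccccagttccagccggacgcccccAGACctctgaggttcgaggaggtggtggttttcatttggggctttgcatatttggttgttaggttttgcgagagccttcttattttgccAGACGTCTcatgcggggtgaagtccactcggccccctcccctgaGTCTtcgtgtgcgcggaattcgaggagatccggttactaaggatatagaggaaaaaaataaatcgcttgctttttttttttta
SMAD6 carries both 4-base motifs joined, as GTCTAGAC, with its first base at position -12 from the start site. This 8-base palindrome, noticed after the sequences were seen, was in 71 of 35116 RefSeq promoter windows (0.202%) and in no window of the other 8 matched genes. SMAD7 carries the same 4-base motifs joined in the other order, from position -127. ID3 has GGCTCC at position -167 with GTCT at -158 and AGAC at -146. In ID1 the AGAC at position -25 is followed by GGCTCC at position -14. These matches describe letters only, since no binding was measured in these cells.

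Over the whole windows of 300 bases (250 before and 50 after the start), GTCT or AGAC was in all 13 windows of the matched genes, and in 84.0% of all promoters. GTCTG or CAGAC was in 9 of the 13 windows, from 6 genes, and in 45.3% of all promoters. GGCGCC was in 2 of the 13 windows, from BMP4 and BAMBI, and in 19.2% of all promoters. GGAGCC or GGCTCC, searched on both strands like the rest, was in 8 of the 13 windows, from 8 genes, and in 36.0% of all promoters. The shares over all promoters are per window, so they compare with the counts of windows and not of genes. The GTCTG and CAGAC matches are a subset of those to GTCT and AGAC. Among the 9 matched genes, ID2 alone had no GC-rich motif. The GC content of the windows was 48.3% to 80.0%, against a median of 58.7% for all promoters, and the part of this composition in the GC-rich matches was not tested.

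The ligands BMP2 and BMP4 were both lower after metformin. BMP2 (ENSG00000125845, chr20:6767686-6780246, plus strand) encodes a ligand of bone and heart development that, in mice, liver endothelium makes to limit iron uptake. It was at 29.3, 24.5 and 19.2 FPKM in the metformin libraries, against 65.1, 82.0 and 79.1 FPKM in the control libraries. The highest metformin library lay well below the lowest control library, and the means were 24.4 ± 5.05 FPKM after metformin and 75.4 ± 9.04 FPKM in control (SD, n = 3 each), 3.10-fold lower with metformin and a log2 fold change of -1.60 (SE 0.15). BMP4 (ENSG00000125378, chr14:53949736-53958761, minus strand) is a close relative of BMP2 that patterns the early embryo and the liver bud. It stood at 6.62, 7.82 and 5.44 FPKM after metformin, against 26.7, 33.9 and 32.4 FPKM in control. The groups did not overlap, the means were 6.63 ± 1.19 FPKM after metformin and 31.0 ± 3.82 FPKM in control, and BMP4 was 4.68-fold lower after metformin (log2 fold change -2.07, SE 0.13). A long noncoding RNA, ENSG00000287156, runs antisense over BMP4 at chr14:53954671-53962234 and was not analysed here.

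BMP2 was the more abundant ligand in every library, and the ratio of BMP2 to BMP4 within a library does not depend on how libraries are scaled. This ratio was 4.43, 3.13 and 3.54 in the metformin libraries and 2.44, 2.41 and 2.44 in the control libraries. The control ratios were close together and all below the metformin ratios, as BMP4 was reduced by a larger factor than BMP2. Of 12 other ligands listed, 9 had values and 2 passed the minimum level. BMP8B was lower, at 2.88 ± 0.261 FPKM after metformin and 3.98 ± 0.435 FPKM in control (log2 fold change -0.36, SE 0.09, limma adjusted p = 0.0078), a call that was lost with quantile normalization (adjusted p = 0.172). BMP6, the main ligand of hepcidin control in the liver, was at 1.23, 1.58 and 4.76 FPKM after metformin and at 1.78, 1.67 and 1.90 FPKM in control. Metformin replicate 3 alone set its direction: the log2 fold change was 0.21 (SE 0.32, limma adjusted p = 0.582) with it and -0.22 (adjusted p = 0.0990) without it. GDF6 lay below the minimum level with 8 fragments over the metformin libraries and 162 over the control libraries. BMP6 and GDF6 are named after their values were seen.

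BAMBI (ENSG00000095739, chr10:28677510-28682932, plus strand) encodes a membrane protein that resembles a type I receptor but lacks the kinase, and so acts as a decoy. It was at 28.8, 29.2 and 35.7 FPKM in metformin libraries and 32.6, 33.6 and 31.9 FPKM in control libraries. Metformin replicate 3 was above all controls and the other metformin libraries below them, so the groups overlapped. The means were 31.2 ± 3.84 FPKM after metformin and 32.7 ± 0.847 FPKM in control and the log2 fold change was -0.07 (SE 0.08), which turned to 0.10 with TMM-type scaling factors and to 0.08 with median-of-ratios factors. BAMBI was the single one of the 10 genes without a direction that held across scalings.

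Receptors and coreceptors of the pathway were split. Of 12 listed, 7 passed the minimum level, with 3 higher, 3 lower and 1 (ACVR2A) that did not reach the threshold. Among all genes tested, 28.9% were higher and 44.1% lower. The median log2 fold change of the receptors and coreceptors tested was 0.09. The type I receptor ACVR1 was at 15.6 ± 1.43 FPKM after metformin and 9.95 ± 0.663 FPKM in control (log2 fold change 0.60, limma adjusted p = 0.00039). BMPR1B, another type I receptor, was at 1.10 ± 0.142 FPKM after metformin and 0.417 ± 0.0624 FPKM in control (0.57, adjusted p = 0.0015). It reached the minimum level in the metformin group alone, and its adjusted p was 0.0048 without a minimum. The type II receptor ACVR2B was at 3.89 ± 0.151 FPKM after metformin and 2.49 ± 0.128 FPKM in control (0.49, adjusted p = 0.00039). Downward, the hemojuvelin gene HJV, a coreceptor needed for hepcidin expression, was at 1.23 ± 0.118 FPKM after metformin and 3.42 ± 0.662 FPKM in control (log2 fold change -0.97, adjusted p = 0.00025). The type I receptor BMPR1A was at 2.40 ± 0.332 FPKM after metformin and 3.66 ± 0.324 FPKM in control (-0.46, adjusted p = 0.0036), a call that was lost with quantile normalization (adjusted p = 0.0634). The type II receptor BMPR2 was at 4.88 ± 0.287 FPKM after metformin and 5.73 ± 0.376 FPKM in control (-0.19, adjusted p = 0.0381). This call on BMPR2 was lost under 8 of 12 alternatives, among them leaving out metformin replicate 1 or 3 or control replicate 5 or 6 (adjusted p of 0.0925, 0.0883, 0.116 and 0.115).

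The inhibitory SMADs differed from control in opposite directions. SMAD6 (ENSG00000137834, chr15:66702236-66782849, plus strand) encodes the inhibitor that acts mainly on BMP receptors. Its FPKM was 0.506, 0.563 and 0.549 in the metformin libraries, against 15.0, 14.1 and 12.8 in the control libraries. All metformin libraries were under 1 FPKM and all control libraries over 12, with 75, 89 and 81 fragments after metformin and 2238, 2149 and 1891 in control. The means were 0.539 ± 0.0295 FPKM after metformin and 13.97 ± 1.08 FPKM in control, a 25.9-fold lower level after metformin. The log2 fold change was -3.28 (SE 0.07), rank 7 from the lowest of the 13094 genes, and was -4.46 with a pseudocount of 0.1 and -4.68 with voom on fragments. A noncoding RNA inside SMAD6 on the same strand (ENSG00000274995, chr15:66740445-66741151) was at 0 in 5 libraries and at 0.165 FPKM in control replicate 6.

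SMAD7 (ENSG00000101665, chr18:48919853-48950965, minus strand) encodes the inhibitor that also acts on TGF-beta receptors. It was at 45.8, 40.3 and 43.0 FPKM in the metformin libraries, against 17.7, 18.4 and 17.3 FPKM in the control libraries. Every metformin library held more than 2 times the level of any control library. The means were 43.0 ± 2.74 FPKM after metformin and 17.8 ± 0.519 FPKM in control, 2.41-fold higher after metformin (log2 fold change 1.22, SE 0.06). Set against each other within a library, SMAD7 exceeded SMAD6 by 90.4, 71.6 and 78.3 times in the metformin libraries and by 1.18, 1.31 and 1.35 times in the control libraries. The control cells thus held the RNA of both inhibitors at like levels per length, and the metformin cells held nearly that of SMAD7 alone (mean ratios of 80.1 ± 9.55 after metformin and 1.28 ± 0.0858 in control).

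**Figure D2:**
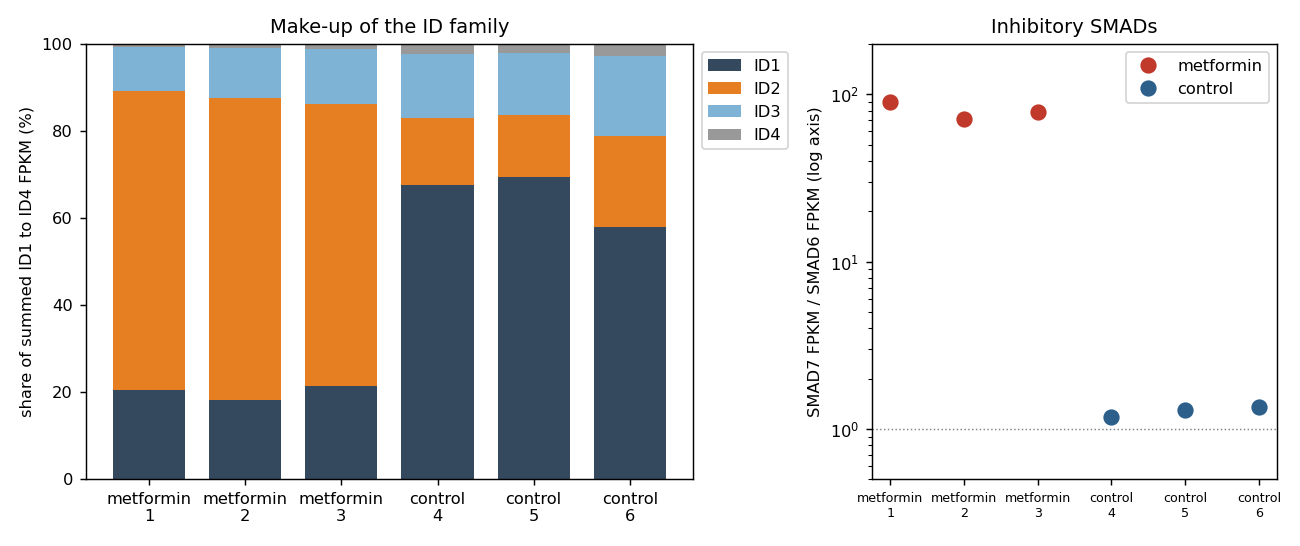
Left, share (%) of ID1, ID2, ID3 and ID4 in their summed FPKM in each library, metformin replicates 1 to 3 and then control replicates 4 to 6. Right, the ratio of SMAD7 to SMAD6 FPKM in the same libraries on a log axis, with a dotted line at equal levels. ID2 makes up 64.8% to 69.3% of the sum in metformin libraries and 14.3% to 20.7% in control libraries, and the SMAD ratio is 71.6 to 90.4 in metformin libraries and 1.18 to 1.35 in control libraries.

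SMAD9 (ENSG00000120693, chr13:36844831-36920887, minus strand), also called SMAD8, is a receptor-activated SMAD of the BMP branch. It was the least abundant of the 10 genes in both groups, at 0.162, 0.246 and 0.253 FPKM after metformin and 1.92, 1.92 and 1.97 FPKM in control. These values rest on 16, 26 and 25 fragments in the metformin libraries and 192, 196 and 194 in the control libraries. The groups lay far apart in relation to their spread, with means of 0.220 ± 0.0510 FPKM after metformin and 1.94 ± 0.0286 FPKM in control, 8.80-fold lower after metformin. The log2 fold change of -1.27 (SE 0.09) was -2.68 with a pseudocount of 0.1 and -3.13 with voom on fragments, but -0.90 with quantile normalization, where SMAD9 was no longer a DEG. SMAD9-IT1, a noncoding RNA inside the gene on the same strand (chr13:36849366-36850046), was listed at 0 in the metformin libraries. In the control libraries it was at 0.683, 0.334 and 0.346 FPKM, which in so short a gene rests on few fragments per library.

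Among the other SMADs that transmit the signal, SMAD5 was lower like SMAD9, while SMAD4, SMAD2 and SMAD3 were higher. SMAD1 was below the minimum level, at 0.172, 0.143 and 0.191 FPKM after metformin and 0.360, 0.342 and 0.374 FPKM in control. SMAD5, the most abundant receptor-activated SMAD of the BMP branch here, was lower at 14.7 ± 1.47 FPKM after metformin and 21.8 ± 0.947 FPKM in control (log2 fold change -0.54, SE 0.08, limma adjusted p = 0.00057). The common SMAD4 was higher at 6.72 ± 0.211 FPKM after metformin and 4.39 ± 0.229 FPKM in control (0.52, adjusted p = 0.00018). Both SMADs of the TGF-beta and activin branch were higher too, SMAD2 with a log2 fold change of 0.31 (adjusted p = 0.0045) and SMAD3 with 0.25 (adjusted p = 0.0153). Of the 4 SMADs tested in this list, 3 were higher and 1 was lower, beside 28.9% higher and 44.1% lower among all genes tested.

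The ID genes differed strongly from each other. ID1 (ENSG00000125968, chr20:31605283-31606515, plus strand) is the classic early target of BMP receptors. It stood at 63.5, 51.4 and 56.2 FPKM in the metformin libraries, against 527, 544 and 326 FPKM in the control libraries. Control replicate 6 was lower than the other controls, yet over 5 times above each metformin library. The means were 57.0 ± 6.08 FPKM after metformin and 466 ± 121 FPKM in control, 8.16-fold lower after metformin, with a log2 fold change of -2.98 (SE 0.19), rank 12 from the lowest, and of -3.21 without control replicate 6. The 6 libraries held 1355, 1171 and 1194 fragments of ID1 after metformin and 11318, 11956 and 6917 in control.

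ID3 (ENSG00000117318, chr1:23557926-23559501, minus strand) often works beside ID1 in vessels and lymphocytes. Its level was 30.8, 32.2 and 33.1 FPKM after metformin, against 116, 112 and 103 FPKM in control. Libraries of a group were close and the groups far apart, with means of 32.0 ± 1.16 FPKM after metformin and 110.3 ± 6.26 FPKM in control, 3.44-fold lower after metformin (log2 fold change -1.75, SE 0.06). ID4 (ENSG00000172201, chr6:19837370-19842197, plus strand) is a family member best known in neural stem cells. It was at 2.19, 2.59 and 2.87 FPKM in metformin libraries and 17.0, 15.9 and 15.9 FPKM in control libraries, on 89, 112 and 116 fragments after metformin and 695, 665 and 640 in control. The groups did not overlap, and ID4 was 6.38-fold lower after metformin (means 2.55 ± 0.340 FPKM after metformin and 16.3 ± 0.644 FPKM in control, log2 fold change -2.29, SE 0.08). The antisense RNA LNC-LBCS, whose gene at chr6:19323428-19839080 overlaps that of ID4, was at 0.0634 to 0.0990 FPKM after metformin and 0.346 to 0.415 FPKM in control.

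ID2 (ENSG00000115738, chr2:8678845-8684461, plus strand), which in addition can bind the retinoblastoma protein, went the other way. It was at 212, 194 and 170.0 FPKM in the metformin libraries, against 119, 112 and 116 FPKM in the control libraries. All metformin libraries were above all controls, with means of 192 ± 20.9 FPKM after metformin and 116 ± 3.56 FPKM in control, 1.66-fold higher after metformin (log2 fold change 0.72, SE 0.08). ID2-AS1, a noncoding RNA on the opposite strand at chr2:8666636-8681864, was lower, at 0.533, 0.684 and 0.788 FPKM after metformin and 1.23, 1.69 and 1.55 FPKM in control (log2 fold change -0.58, SE 0.11, limma adjusted p = 0.0023). ID2-AS1 passed the minimum level only through the control group, where it was higher, and its adjusted p without a minimum is not given here. The sources used here do not state whether counting used strand, so fragments of overlapping genes cannot be told apart in these values.

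Summed over the ID genes, FPKM was 308, 281 and 262 in metformin libraries and 778, 783 and 562 in control libraries. ID1 supplied 20.6%, 18.3% and 21.4% of this sum after metformin and 67.7%, 69.4% and 58.1% in control. ID2 supplied 68.7%, 69.3% and 64.8% after metformin and 15.3%, 14.3% and 20.7% in control. The leading ID transcript was therefore ID2 in all metformin libraries and ID1 in all control libraries, whatever the scaling between libraries. The ID2 to ID1 ratio was 3.33, 3.78 and 3.03 after metformin and 0.225, 0.206 and 0.357 in control, the highest control value coming from replicate 6. ID3 made up 11.4% ± 1.32 after metformin and 15.9% ± 2.22 in control, and ID4 0.910% ± 0.192 after metformin and 2.35% ± 0.422 in control (SD, n = 3 each).

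The order of the 10 genes by level, read from FPKM and so per length, differed between the groups as well. After metformin it was ID2, ID1, SMAD7, ID3, BAMBI, BMP2, BMP4, ID4, SMAD6 and SMAD9 from high to low, and the ranges of the 3 libraries overlapped between ID3 and BAMBI and between BAMBI and BMP2. In control it was ID1, ID2, ID3, BMP2, BAMBI, BMP4, SMAD7, ID4, SMAD6 and SMAD9, with overlap between ID2 and ID3 and between BAMBI and BMP4. The lower end of the order, from ID4 over SMAD6 to SMAD9, was shared, although SMAD6 stood much farther below ID4 after metformin (SMAD6 0.539 and ID4 2.55 FPKM) than in control (SMAD6 13.97 and ID4 16.3 FPKM). Replicate spread also differed by gene. In control the coefficient of variation was 25.96% for ID1 and 12.3% for BMP4, and 1.47% for SMAD9. After metformin it was 23.2% for SMAD9 and 20.7% for BMP2, and 3.63% for ID3.

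Other target genes of BMP signaling did not share a direction. Of 15 listed, 14 had values and 8 were tested, with 2 higher, 3 lower and 3 without a call. All genes tested were 28.9% higher and 44.1% lower. The median log2 fold change of the target genes tested was -0.02. HAMP, which encodes hepcidin, was at 0.269, 0.180 and 0.250 FPKM after metformin, against 1.94, 2.03 and 1.87 FPKM in control. Its groups were well apart (log2 fold change -1.26, SE 0.09, limma adjusted p = 1.5e-05) on 37 fragments over the metformin libraries and 308 over the control libraries. ATOH8, a transcription factor gene that responds to BMP and iron in mouse liver, was at 0.390, 0.116 and 0.277 FPKM after metformin, against 2.47, 2.24 and 1.86 FPKM in control (log2 fold change -1.34, SE 0.12, adjusted p = 5.3e-05). HAMP and ATOH8 passed the minimum level only through the control group, where they were higher, and without any minimum level their adjusted p was 0.00017 and 0.00056. TNFRSF11B, the gene of the decoy receptor osteoprotegerin, was lower with a log2 fold change of -0.67 (adjusted p = 0.0017). The repressor genes SNAI2 (0.96, adjusted p = 0.00035) and HES1 (0.76, adjusted p = 0.00038) were higher, SNAI2 having passed the minimum level through the metformin group alone (adjusted p = 0.0026 without a minimum).

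**Figure D3:**
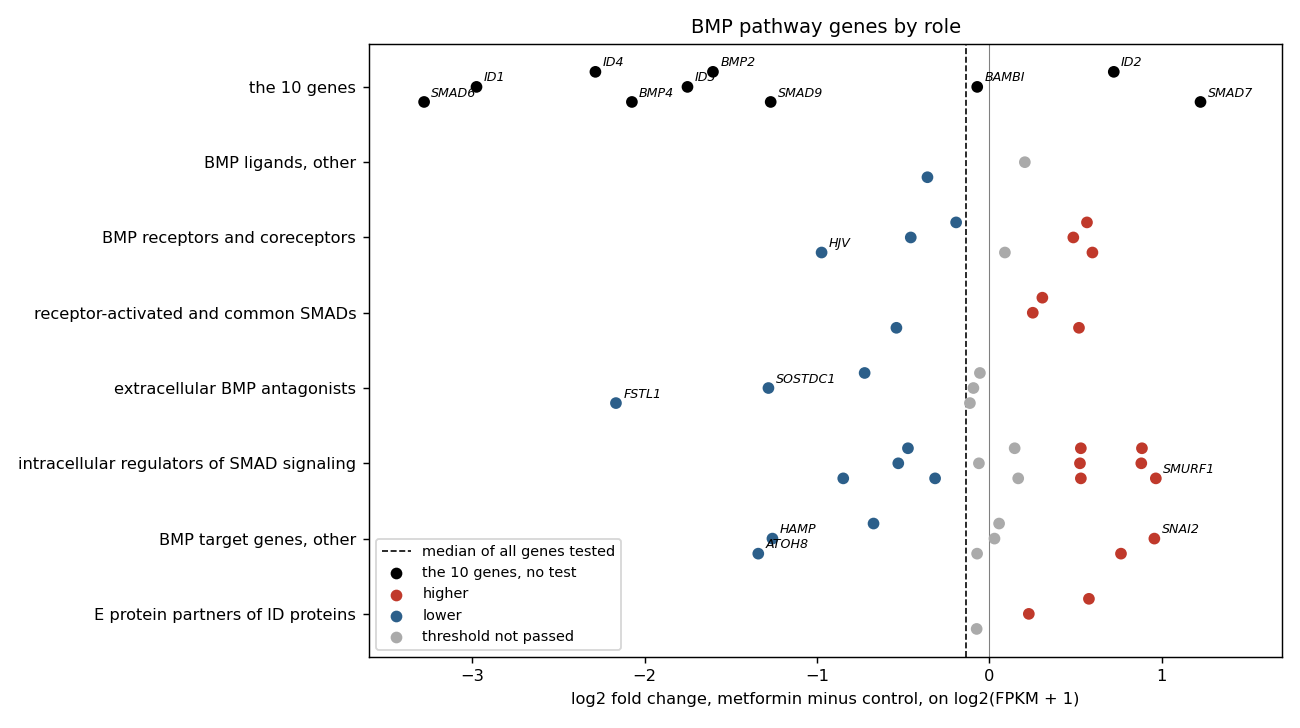
Log2 fold change, metformin minus control, on log2(FPKM + 1) (horizontal axis) of the 10 genes (black, no test) and of 43 further BMP pathway genes tested, by role. Red dots are higher and blue dots lower at an adjusted p under 0.05, grey dots did not pass, and the dashed line is the median of all genes tested at -0.14; SMAD6 at -3.28 and ID1 at -2.98 lie farthest from it.

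Extracellular antagonists trap ligands before they reach a receptor. Of 17 listed, 14 had values and 6 were tested, with 3 lower (beside 44.1% of all genes lower) and 3 without a call (CHRD, FST and TWSG1). The follistatin-like gene FSTL1 was at 1.11, 0.770 and 0.871 FPKM in metformin libraries, against 6.58, 7.99 and 8.26 FPKM in control libraries. It had the largest change of the tested pathway genes beyond the 10, with a log2 fold change of -2.17 (SE 0.10, limma adjusted p = 4.2e-06). SOSTDC1, a secreted BMP and Wnt antagonist, was at 0.487 ± 0.138 FPKM after metformin and 2.63 ± 0.525 FPKM in control (-1.28, adjusted p = 8.5e-05). FSTL1 and SOSTDC1 reached the minimum level in the control group alone, and their adjusted p was 7.6e-05 and 0.00086 without a minimum. FSTL3, which binds activins and some BMPs, was at 7.36 ± 0.915 FPKM after metformin and 12.8 ± 1.07 FPKM in control (-0.72, adjusted p = 0.00036).

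Among 14 intracellular regulators of SMAD signaling, 13 were tested, with 6 higher, 4 lower and 3 without a call. The shares over all genes tested were 28.9% higher and 44.1% lower. The ubiquitin ligase gene SMURF1, whose product marks SMAD1, SMAD5 and receptors for degradation, was at 19.5 ± 0.553 FPKM after metformin and 9.48 ± 0.294 FPKM in control (log2 fold change 0.97, SE 0.05, limma adjusted p = 6.3e-06). NEDD4L, another ubiquitin ligase (0.88, adjusted p = 2.1e-05), and PPM1A, a phosphatase known to act on SMADs (0.88, adjusted p = 1.4e-05), were higher as well. Lower were CTDSPL and CTDSP1, phosphatase genes of 1 family, with log2 fold changes of -0.85 (adjusted p = 0.00013) and -0.47 (adjusted p = 0.0017). CTDSP2 of the same family, named after its values were seen, was higher (0.53, adjusted p = 0.00021). It was at 39.3 ± 1.27 FPKM after metformin and 27.0 ± 1.96 FPKM in control. FKBP1A, whose product holds type I receptors inactive, was lower too (-0.53, adjusted p = 9.5e-05). Of the 3 genes of E proteins, the partners of ID proteins, TCF12 was higher at 15.5 ± 0.332 FPKM after metformin and 10.1 ± 0.228 FPKM in control (0.58, adjusted p = 4.2e-05). TCF3 was higher by 0.23 (adjusted p = 0.0267), and TCF4 did not pass the test. The call on TCF3 was lost under 5 alternatives, among them leaving out metformin replicate 2 or 3 or control replicate 5 or 6 (adjusted p of 0.0667, 0.0724, 0.0556 and 0.0625).

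Over all 7 lists, 43 pathway genes beyond the 10 were tested, with 16 (37.2%) higher, 15 (34.9%) lower and 12 without a call, beside 28.9% higher and 44.1% lower among all genes. DEGs among them were FSTL1, SOSTDC1, HAMP and ATOH8, all lower, which makes 9.30% beside 10.7% of all genes, and 1 gene with quantile normalization. These 4 reached the minimum level through the control group, and BMPR1B and SNAI2 through the metformin group alone, so the counts hold 6 genes let in by the group where they were higher and are a description. The median log2 fold change of the 43 pathway genes was 0.03, and -0.14 for all genes. No pathway gene was a DEG upward in the reported fit on log2(FPKM + 1), beside 4.88% of all genes tested. On this scale, the 16 that were higher at the adjusted p did not pass the DEG threshold for size. Upward DEGs numbered 1 with quantile normalization, 3 with a pseudocount of 0.1, 4 with TMM-type factors, 4 with median-of-ratios factors and 5 with voom on fragments.

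Among the genes whose profile over the 6 libraries was nearest to that of ID1 were XRCC2 and FAM111B, by the root mean square difference of log2(FPKM + 1) from the control mean (0.260 and 0.296) among 10878 protein-coding genes. For SMAD6 the nearest were FADS2, UHRF1 and XAGE2, with differences of 0.0715, 0.129 and 0.142. Each profile spans both groups, and all genes share the same 6 libraries and their depth. FADS2, a fatty acid desaturase gene, was at 5.25 FPKM after metformin and 59.4 FPKM in control, a log2 fold change of -3.27.

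**Figure D4:**
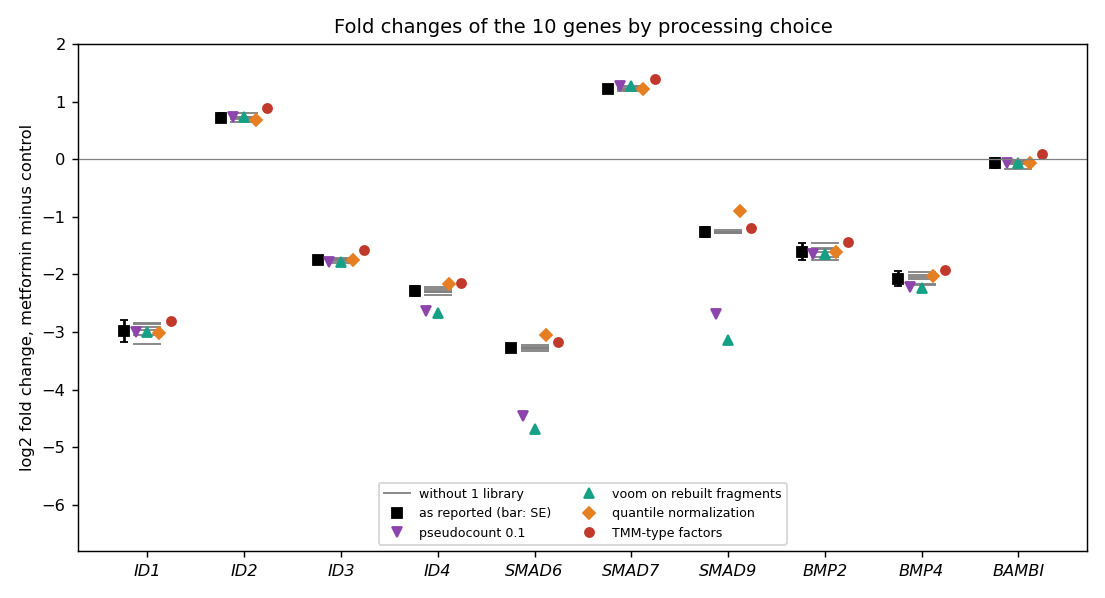
Log2 fold change, metformin minus control (vertical axis), of each of the 10 genes as reported (black, bar: SE), with a pseudocount of 0.1, voom on rebuilt fragments, quantile normalization, TMM-type factors, and without 1 library at a time (grey). Across settings SMAD9 ranges from -3.13 to -0.90 and SMAD6 from -4.68 to -3.06, whereas ID2 stays between 0.65 and 0.89 and SMAD7 between 1.18 and 1.39.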

How the data were processed

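The authors sequenced RNA of 6 Huh-7 libraries, used clean reads with the genome GRCh38, and computed expression with Cufflinks 2.1.1 (aligner: not given in the sources used here). The deposited values are FPKM per gene and library. Steps of 1 fragment in these FPKM values gave library totals and whole fragments for 31776 of the 31777 genes above 0 (tolerance 1e-08, relative), so intervals from fragments would cover counting error only. The 13094 genes whose mean reached 1 FPKM in 1 group or both were compared by two-sided tests of limma 3.58.1 (R 4.3.3) on log2(FPKM + 1), with the variance trended on the mean and Benjamini-Hochberg adjustment over all of them. DEGs had an adjusted p under 0.05 and a log2 fold change above 1 or below -1. On simulated data with 200 changed genes of 12815 tested, 90% of those at -2, 72% at -1.3, 88% at 1.3 and 100% at 2 were called (50 each). The simulation gave all genes the same length and a fixed spread beyond counting error. It drew the changed genes from those above a set control level and changed far fewer than differed here. These shares are therefore not the power of this comparison. Tables and figures used Python 3.11.15, numpy 2.4.6, pandas 2.3.3 and matplotlib 3.10.9.

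The 10 genes and the pathway lists were chosen with earlier results of these data known. Named genes are the 10, genes overlapping them, up to 3 higher and 3 lower per pathway list by size of change, and SMAD1, SMAD5, SMAD4, BMPR1A, BMPR2 and HAMP. Likeness was computed for ID1 and SMAD6 alone. Alternatives were a pseudocount of 0.1, no filter, quantile normalization, TMM-type and median-of-ratios factors, voom (at least 10 fragments in at least 3 libraries), leaving out each library, and other motif spellings; the palindrome search was added after seeing the data. Listed genes with no values here were not analysed. A marker and a gene of the likeness ranking are not reported here.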

Additional observations from a re-analysis of the deposited data

How the results depend on the processing

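Of the 120 fold changes of the 10 genes under alternatives, 97 moved by less than the replicate spread and none of the called ones reversed; SMAD7 was the upward DEG in all of them and 7 genes were downward DEGs, save with quantile normalization (6, without SMAD9). The median log2 fold change of the 10, -1.68, was -1.998 with a pseudocount of 0.1, -1.51 with TMM-type factors, -1.52 with median-of-ratios factors and -2.01 with voom, and -1.73 to -1.61 without 1 library. Over all genes, 639 DEGs were higher and 1401 lower; a pseudocount of 0.1 gave 998 and 2422, voom 1165 and 3617, and quantile normalization 909 and 924. The share of DEGs that were higher, 31.3%, was 49.6% with quantile normalization, 45.8% with TMM-type factors and 44.9% with median-of-ratios factors, with median shifts of 0.11, 0.15 and 0.13 over the genes shared with the reported comparison (voom: -0.01). Among the other pathway genes, upward DEGs, none as reported, numbered 3 with a pseudocount of 0.1, 1 with quantile normalization, 4 with TMM-type factors, 4 with median-of-ratios factors, 5 with voom and 0 to 1 without 1 library (1 without metformin replicate 2 or control replicate 4). Downward DEGs, 4 as reported, numbered 1 with quantile normalization and 9 with voom. Of 336 fold changes of named pathway genes (CTDSP2 not among them), 320 kept their call, 15 lost it and 1 turned. The 1 that turned was of BMP6, which ranged from -0.22 to 0.47 without 1 library. The cause of these changes was not tested. Few fragments after metformin limit SMAD9, SMAD1, SOSTDC1, HAMP, ATOH8 and GDF6. No paired analysis was possible because the replicate numbers of the groups (1 to 3 and 4 to 6) share none.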
